A study of Homo sapiens with 6 samples.

Results

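In all, 10 genes of TGF-beta and bone morphogenetic protein (BMP) signaling were followed in CAL62 cells, an established human anaplastic thyroid carcinoma (ATC) line, by RNA sequencing. These were TGFB1, TGFB2, INHBA, TGFBR1, TGFBR2, SMAD3, SMAD7, SKIL, ID1 and ID3, picked by name from the 39168 gene identifiers of the count table, each found there by its Ensembl identifier. All libraries came from unmodified (WT) CAL62 cells grown in serum-containing medium, 3 cultured for 48 h with 50 nM erianin, a natural product of Dendrobium, and 3 with its solvent DMSO, so that erianin against DMSO is the one comparison of the design. The labels call the experiments replicates without saying how separate the cultures were, and p-values therefore measure the spread between these libraries, which may be technical. A single cell line, dose and time were sequenced, and in such bulk libraries fewer cells with a transcript and less of it per cell cannot be told apart.

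Between 25776301 and 34107727 reads per library were counted on genes. Normalized counts are given as CPM, read counts scaled by TMM-adjusted library size, and levels are compared between genes only in TPM, which also divides by gene length. DMSO replicate 3 stood apart: over all tested genes its Euclidean distance (log2 CPM) amounted to 64.1 and 62.9 from the other DMSO libraries, which were 37.3 apart, while the erianin libraries lay between 28.2 and 29.01 from one another. Of the thyroid markers, PAX8 was abundant but lower with erianin (means 676 and 428 CPM, log2 fold change -0.66, edgeR adjusted p = 0.00403), whereas TG, TSHR, SLC5A5 and NKX2-1 stayed under 1 CPM in every library, and among epithelial markers CDH1 did so as well while KRT8 and KRT18 were abundant. The summed thyroid markers ran from 644 to 742 CPM with DMSO and from 421 to 435 CPM with erianin, and the 3 mesenchymal markers, FN1 among them, from 6470 to 8390 CPM and from 4070 to 4620 CPM. All 5 immune markers stayed under 1 CPM in every library, with sums from 0.321 to 0.657 CPM with DMSO and from 0.371 to 0.687 CPM with erianin. The sum of 4 endothelial markers ran from 0.431 to 0.674 CPM and from 1.14 to 1.49 CPM, each gene staying under 1 CPM. Of 6 fibroblast markers, COL3A1, DCN, LUM and PDGFRB stayed under 1 CPM, and the sum, nearly all from COL1A1 and COL1A2, ran from 43.3 to 47.4 CPM with DMSO and from 50.3 to 56.7 CPM with erianin. Within it COL1A2 rose from 9.80 to 24.95 CPM (edgeR adjusted p = 0.00532), while COL1A1 was at 34.7 and 27.8 CPM (edgeR adjusted p = 0.0613). Their part in the results below was not tested.

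In this pathway a secreted ligand dimer, held latent by binding proteins in the case of TGF-beta, brings together type II and type I receptor kinases, and the type I receptor phosphorylates receptor SMADs that enter the nucleus with SMAD4. TGF-beta and activin signal through SMAD2 and SMAD3, whereas BMPs signal through SMAD1, SMAD5 and SMAD9, and each branch turns on its own inhibitors, among them SMAD7 and SKIL for TGF-beta. ID1 and ID3, helix-loop-helix proteins without a DNA-binding region that hold back differentiation factors, are classic BMP target genes. In thyroid epithelium TGF-beta is known to restrain growth and to favor a mesenchymal phenotype.

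INHBA and ID3, 2 of the 10 genes, were upregulated with erianin, and 0 were called as lower by edgeR, as by DESeq2, SMAD3 being the 1 member that was lower at an unadjusted p under 0.05. INHBA, the activin A subunit, rose 1.52-fold (95% interval 1.27 to 1.81), and ID3 rose 1.99-fold (1.45 to 2.72). SMAD3, the receptor SMAD of the TGF-beta branch, passed the p threshold but not the fold-change threshold at 0.797 of its DMSO level (0.707 to 0.899). A gene was called when its adjusted p in edgeR's quasi-likelihood test was below 0.05 and its log2 fold change lay beyond 0.5 in either direction. Of the 10 genes, 9 passed the low-count filter, TGFB2 being the exception. By this rule 5.37% of the 12821 tested genes were called as higher and 3.36% as lower, 8.73% together. The CPM of erianin and DMSO libraries did not overlap for 6 of the 9 tested members, 4 of them higher and 2 lower with erianin, whereas 38.7% of all tested genes did not overlap, 19.5% being higher and 19.3% lower. Over the 9 members the log2 fold changes had a median of 0.26, against 0.00 over all tested genes.

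**Figure D1:**
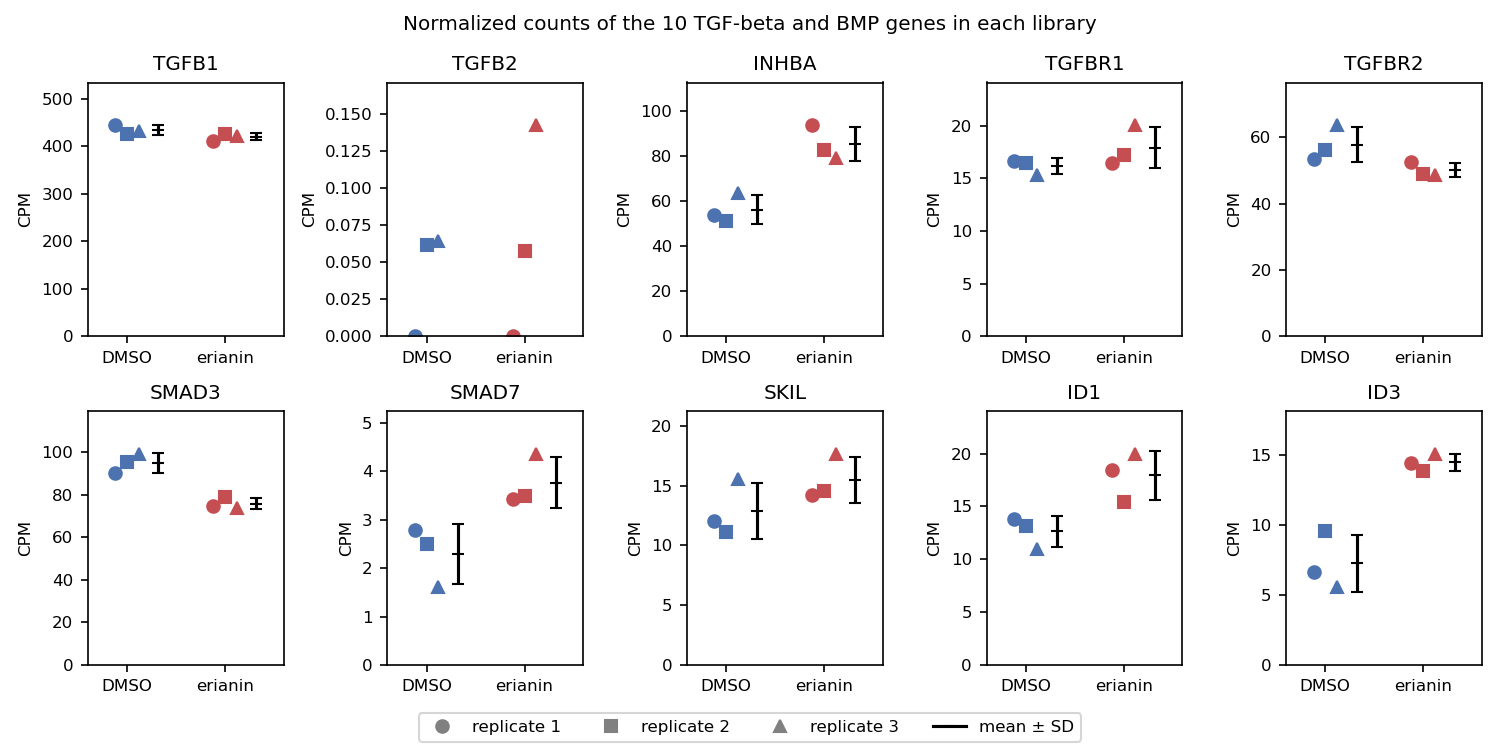
CPM (TMM-normalized read counts, linear axes from 0 that differ between panels) of the 10 genes in each of the 6 libraries, with symbols for the replicate number and bars for mean ± SD (n = 3, omitted for TGFB2, which had at most 5 reads). The erianin libraries sit above all DMSO libraries for INHBA, SMAD7, ID1 and ID3 and below them for TGFBR2 and SMAD3.

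Among the ligands, TGFB1, the main TGF-beta isoform of most epithelial tumors, lies on chromosome 19 from 41301587 to 41353911 (GRCh38, minus strand). It had 445, 426 and 432 CPM in DMSO replicates 1, 2 and 3 and 412, 426 and 421 CPM in the erianin replicates. The groups overlapped, and the log2 fold change was -0.05 (95% interval -0.20 to 0.10, edgeR adjusted p = 0.647), which turned to between 0.00 and 0.15 with upper-quartile factors and on TPM. Of its exon bases, 6.6% are shared with HNRNPUL1 on the opposite strand. TGFB2, a second isoform (chromosome 1, 218346235 to 218444619), was barely detected, with 0, 2 and 2 reads with DMSO and 0, 2 and 5 reads with erianin. The limit of 3 counts corresponds to between 0.0857 and 0.123 CPM in these libraries, so no change of TGFB2 was detectable at this depth.

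INHBA encodes the inhibin beta A chain, whose dimer is activin A (chromosome 7, 41667168 to 41705834, minus strand). It had 53.9, 51.2 and 63.5 CPM with DMSO and 93.8, 82.6 and 79.3 CPM with erianin. Every erianin library was above every DMSO library, DMSO replicate 3 being the highest of its group. The mean changed from 56.2 ± 6.49 to 85.2 ± 7.61 CPM (SD, n = 3 each), or 0.60 ± 0.11 on the log2 scale (standard error), with an edgeR adjusted p of 0.0140. When the trend of each library on GC content was removed, the INHBA change became 0.43 (edgeR adjusted p = 0.0124), under the fold-change threshold.

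The receptors did not pass. TGFBR1, the type I TGF-beta receptor (chromosome 9, 99104038 to 99154192), had 16.7, 16.5 and 15.3 CPM with DMSO and 16.4, 17.2 and 20.1 CPM with erianin. The groups overlapped, with a log2 fold change of 0.15 (95% interval -0.12 to 0.41, edgeR adjusted p = 0.423) that became -0.04 once the GC trend was removed. TGFBR2, the type II receptor that binds the ligand first (chromosome 3, 30606502 to 30694142), had 53.6, 56.1 and 63.8 CPM with DMSO and 52.6, 49.1 and 48.7 CPM with erianin. All erianin libraries lay below the DMSO libraries narrowly, with a log2 fold change of -0.21 (95% interval -0.43 to 0.01, edgeR adjusted p = 0.179). On TPM, whose columns sum to different totals, this TGFBR2 difference was -0.01.

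SMAD3 (chromosome 15, 67063763 to 67195195) had 90.1, 95.3 and 99.3 CPM with DMSO and 74.7, 78.7 and 73.7 CPM with erianin. Each erianin library was lower than each DMSO library. The difference on the log2 scale was -0.33 ± 0.07 (standard error), with an edgeR adjusted p of 0.0275, inside the fold-change threshold, and it ranged from -0.37 to -0.12 over the other settings with adjusted p-values up to 0.21. SMAD7, the inhibitory SMAD that TGF-beta itself induces (chromosome 18, 48919853 to 48952052, minus strand), was scarce, with 68, 81 and 50 reads with DMSO and 117, 122 and 153 reads with erianin. These correspond to 2.79, 2.50 and 1.61 CPM and to 3.43, 3.49 and 4.37 CPM, without overlap, DMSO replicate 3 being the lowest. The SMAD7 log2 fold change of 0.72 (95% interval 0.18 to 1.26) did not pass after adjustment (edgeR adjusted p = 0.0786), and without DMSO replicate 3 it was 0.51 with an edgeR adjusted p of 0.0242. SKIL, a transcriptional repressor of SMAD complexes (SnoN, chromosome 3, 170357678 to 170396835), had 12.03, 11.1 and 15.5 CPM with DMSO and 14.3, 14.5 and 17.7 CPM with erianin. Its groups overlapped, through DMSO replicate 3, and the log2 fold change was 0.26 (95% interval -0.11 to 0.64, edgeR adjusted p = 0.304). Without that library the SKIL change was 0.42 (edgeR adjusted p = 0.00094), and with the GC trend removed 0.05.

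ID3 lies on chromosome 1 from 23557918 to 23559794 (minus strand) and ID1 on chromosome 20 from 31605283 to 31606515. ID3 had 6.65, 9.55 and 5.59 CPM with DMSO and 14.4, 13.9 and 15.1 CPM with erianin. The lowest erianin library was above the highest DMSO library, replicate 2, and the DMSO libraries were the more spread. The mean changed from 7.26 ± 2.05 to 14.5 ± 0.612 CPM (SD, n = 3 each), or 0.99 ± 0.19 on the log2 scale (standard error), with an edgeR adjusted p of 0.0169. ID1 had 13.8, 13.2 and 11.01 CPM with DMSO and 18.4, 15.5 and 20.01 CPM with erianin. Again the groups did not overlap, and the means were 12.7 ± 1.46 and 18.0 ± 2.31 CPM (SD, n = 3 each). With a log2 fold change of 0.51 (standard error 0.14) and an edgeR adjusted p of 0.0510, ID1 missed the p threshold, and it was called in 4 of the 11 other settings that kept every library.

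The calls rested on 3 libraries a group. Without DMSO replicate 3, INHBA (0.70), ID3 (0.81) and SMAD7 were called, at a background of 11.4% of tested genes called as higher, and the biological coefficient of variation fell from 0.139 to 0.0421. ID3 alone was called without DMSO replicate 2, and no member without DMSO replicate 1 or without any one of the erianin replicates, the shares of tested genes called as higher being 3.27%, 3.31% and between 1.33% and 1.42% in that order. In those 4 fits without a member call, the log2 fold changes stayed between 0.52 and 0.65 for INHBA and between 0.93 and 1.02 for ID3, with edgeR adjusted p-values from 0.0532 to 0.0866. Across the 11 settings that kept all 6 libraries, ID3 was called in 11, INHBA in 9 and SMAD7 in 1, the GC offset (0.72, edgeR adjusted p = 0.03), with between 3.0% and 10.3% of the tested genes called as higher.

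**Figure D2:**
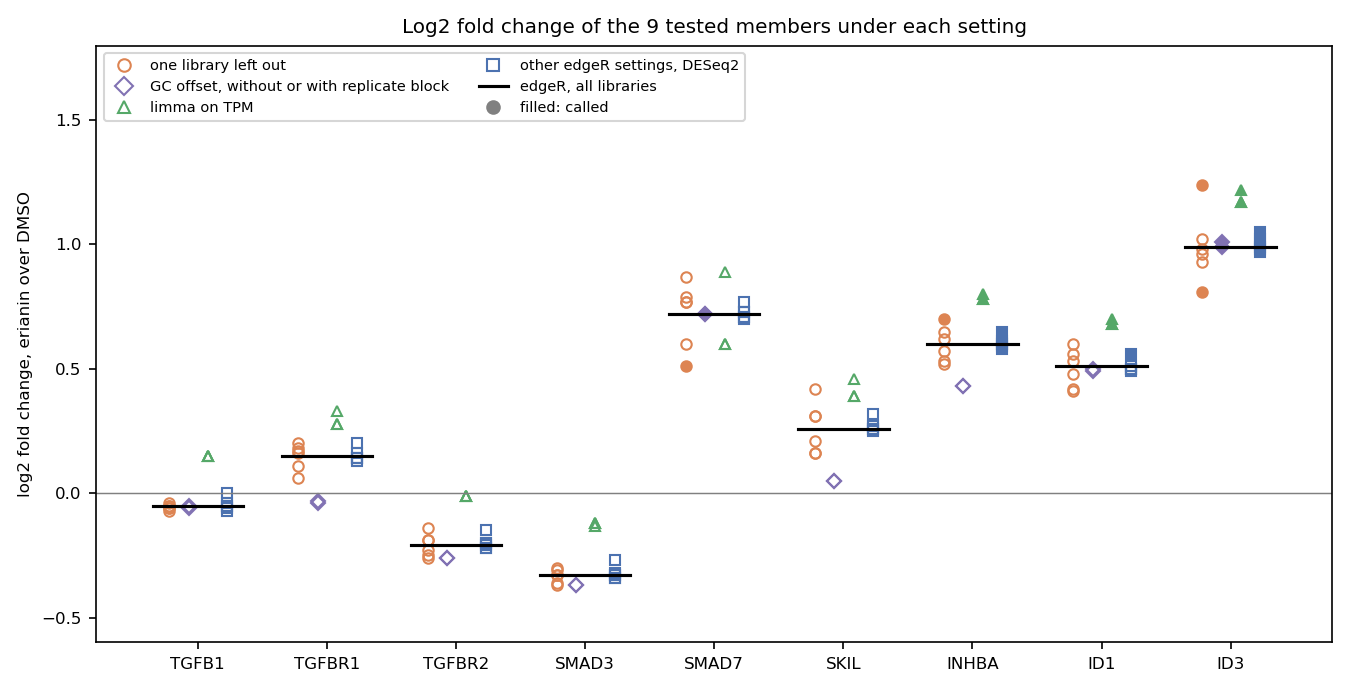
Log2 fold change, erianin over DMSO, of the 9 tested members in edgeR with all libraries (black line) and under each other setting (symbols, filled where called). ID3 lies between 0.81 and 1.24 and INHBA between 0.43 and 0.80 in every setting run, the lowest INHBA values being those with the GC trend removed.

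On the length-scaled TPM values, TGFB1 stood far above the other members in both groups, at 621 ± 36.0 TPM with DMSO and 687 ± 12.95 TPM with erianin (SD, n = 3 each). With DMSO it was followed by TGFBR2 (36.8 TPM), ID1 (33.6), SMAD3 (30.0), INHBA (26.4), ID3 (15.6), TGFBR1 (3.92), SKIL (3.90) and SMAD7 (1.39). The ranges of TGFBR2 and ID1, of ID1 and SMAD3, and of TGFBR1 and SKIL overlapped, so these neighbors were not separated in level. With erianin the order was ID1 (54.5 TPM), INHBA (46.1), TGFBR2 (36.6), ID3 (35.3), SMAD3 (27.5), SKIL (5.41), TGFBR1 (4.97) and SMAD7 (2.59), where ID1 and INHBA, TGFBR2 and ID3, and SKIL and TGFBR1 overlapped in range. INHBA thus stood below SMAD3 in 3 of 3 DMSO libraries, and ID3 above SMAD3 in 3 of 3 erianin libraries.

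**Figure D3:**
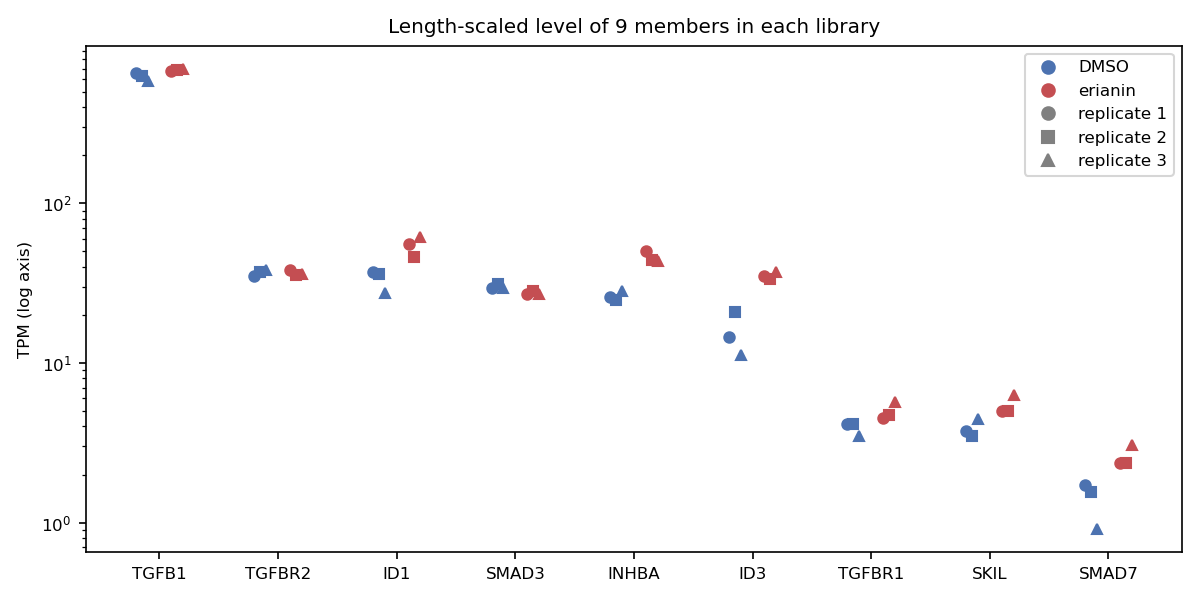
TPM (reads scaled by gene length and library total, log axis) of 9 members in the 3 DMSO and 3 erianin libraries, ordered by the DMSO mean. TGFB2, listed at 0 in 1 library of each group, is left out. TGFB1 is at 621 TPM with DMSO on average and the next member, TGFBR2, at 36.8 TPM.

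Ratios of 2 genes inside a library do not depend on how libraries are scaled, but the GC trend of each library was not removed from them. The SMAD7 to SMAD3 ratio was 0.0586, 0.0495 and 0.0306 in the DMSO libraries and 0.0868, 0.0840 and 0.112 in the erianin libraries. It was thus higher in every erianin library, by 1.07 on the log2 scale. The ID1 to ID3 ratio was 2.58, 1.71 and 2.45 with DMSO and 1.59, 1.38 and 1.65 with erianin, lower without overlap. The TGFBR2 to TGFBR1 ratio changed from a mean of 9.47 ± 1.34 to 7.44 ± 1.03 (SD, n = 3 each). It was narrowly without overlap, at 8.46 in DMSO replicate 1 and 8.43 in erianin replicate 1. In an exact two-sided permutation test over the 20 assignments of libraries, each of these 3 ratios had p = 0.10, the smallest value that 3 against 3 allows, and 0.13 after adjustment over the 4 ratios tested. The ratio of SKIL to SKI, its close relative, overlapped between groups, at 0.0637 ± 0.0125 and 0.0851 ± 0.0119 (SD, n = 3 each, exact permutation p = 0.20). A ratio of TGFB2 to TGFB1 could not be formed, as TGFB2 had no reads in 2 libraries.

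RefSeq start regions (GRCh38.p14, 250 bases before to 50 bases after the first start listed) were matched for all 10 members. Each was searched on both strands for the SMAD core site CAGAC, the GC-rich SMAD site GGCGCC and the AP-1 site TGANTCA. The core site was found for 7 of the 10 members (TGFB2, TGFBR1, SMAD3, SMAD7, SKIL, INHBA and ID3), against 45.0% of the 27305 genes with such a region. The GC-rich site was found for 2 members, SMAD3 and SKIL, against 19.0%, and the AP-1 site for 0 members, against 7.8%. These letter matches describe the windows and are no evidence of binding.

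The matches in members that were called or passed the p threshold, and in SMAD7, are shown with 10 bases on each side, 5′ to 3′ on the strand of the gene, with the match in capitals. The core sites of INHBA and SMAD3 lie after the start used and the others before it. For ID3 and SMAD7, all 250 bases before that start are annotated exon of the gene itself in GENCODE 29. The bases before the start used for SMAD3 and INHBA lie inside their own annotated genes as well, with 0 and 18 exon bases among them. All sites shown thus lie inside the annotated gene.
ID3 core site, chr1:23559634-23559658: tcttcggcgtCAGACcagccggagg
INHBA core site, chr7:41703049-41703073: aagaggagctCAGACagctcttacc
SMAD3 core site, chr15:67065598-67065622: gcatgaaacaCAGACtgggagcggg
SMAD3 first GC-rich site, chr15:67065456-67065481: tggccggccgGGCGCCctccccggag
SMAD3 second GC-rich site, chr15:67065486-67065511: gggcgggcagGGCGCCcgcgggagga
SMAD7 first core site, chr18:48951168-48951192: cggacgccccCAGACctctgaggtt
SMAD7 second core site, chr18:48951079-48951103: cttattttgcCAGACgtctcatgcg

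For INHBA, which was called, and ID1, which lay at the threshold, the part of the region before the start that holds no annotated exon base is shown whole, 5′ to 3′. Neither run holds a match to the 3 motifs. The INHBA run lies before the start used but inside the annotated INHBA gene, and INHBA-AS1 overlaps its window.
INHBA upstream run, chr7:41703109-41703340 (minus strand): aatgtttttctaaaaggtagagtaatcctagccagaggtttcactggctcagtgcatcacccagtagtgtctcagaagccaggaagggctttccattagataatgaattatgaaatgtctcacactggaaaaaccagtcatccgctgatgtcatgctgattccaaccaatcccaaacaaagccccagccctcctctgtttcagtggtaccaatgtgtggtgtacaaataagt
ID1 upstream run, chr20:31605039-31605282 (plus strand): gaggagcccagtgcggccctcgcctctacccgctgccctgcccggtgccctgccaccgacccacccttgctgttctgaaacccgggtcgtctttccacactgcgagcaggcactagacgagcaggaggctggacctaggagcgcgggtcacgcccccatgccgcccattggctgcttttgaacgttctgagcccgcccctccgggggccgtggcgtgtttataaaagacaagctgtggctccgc

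The members were then set beside 88 genes of the pathway, sorted by role and including the members. Of these, 73 passed the low-count filter, and 17 were called as higher and 6 as lower, at the background of 5.37% and 3.36% of all tested genes. The lists were chosen with earlier results of these data known. Their counts beside the background are therefore no support for a change of the pathway. Leaving out the members, 15 rose and 6 fell of 64 tested, with a median log2 fold change of 0.13. Of the 17 genes that rose, 7 had a DMSO mean under 1 CPM. INHBB, BAMBI and ID2 had no more than 10 reads in any DMSO library. They passed the low-count filter through the erianin libraries, which favors a rise, so their direction is no separate support. With at least 10 counts required in every library, 13 pathway genes were called as higher and 6 as lower, at 4.98% and 3.41% of tested genes. In all 6 fits that left out a library, 9 of the 23 called genes were called, namely THBS1, NOG, FST, SNAI1, NEDD9, ID2, MSX1, HES1 and, as lower, LTBP2. The other 14 lost the call in at least 1 of those fits. Among all called genes, the share that held in every such fit was not computed, nor the share with a DMSO mean under 1 CPM. Neither count is therefore read as particular to the pathway. In the 11 settings with all libraries ACVRL1 was called in 4, PMEPA1 in 6, INHBB, INHBE, BAMBI and TGFBI in 7, and LTBP4, NEDD9 and HMGA2 in 8.

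**Figure D4:**
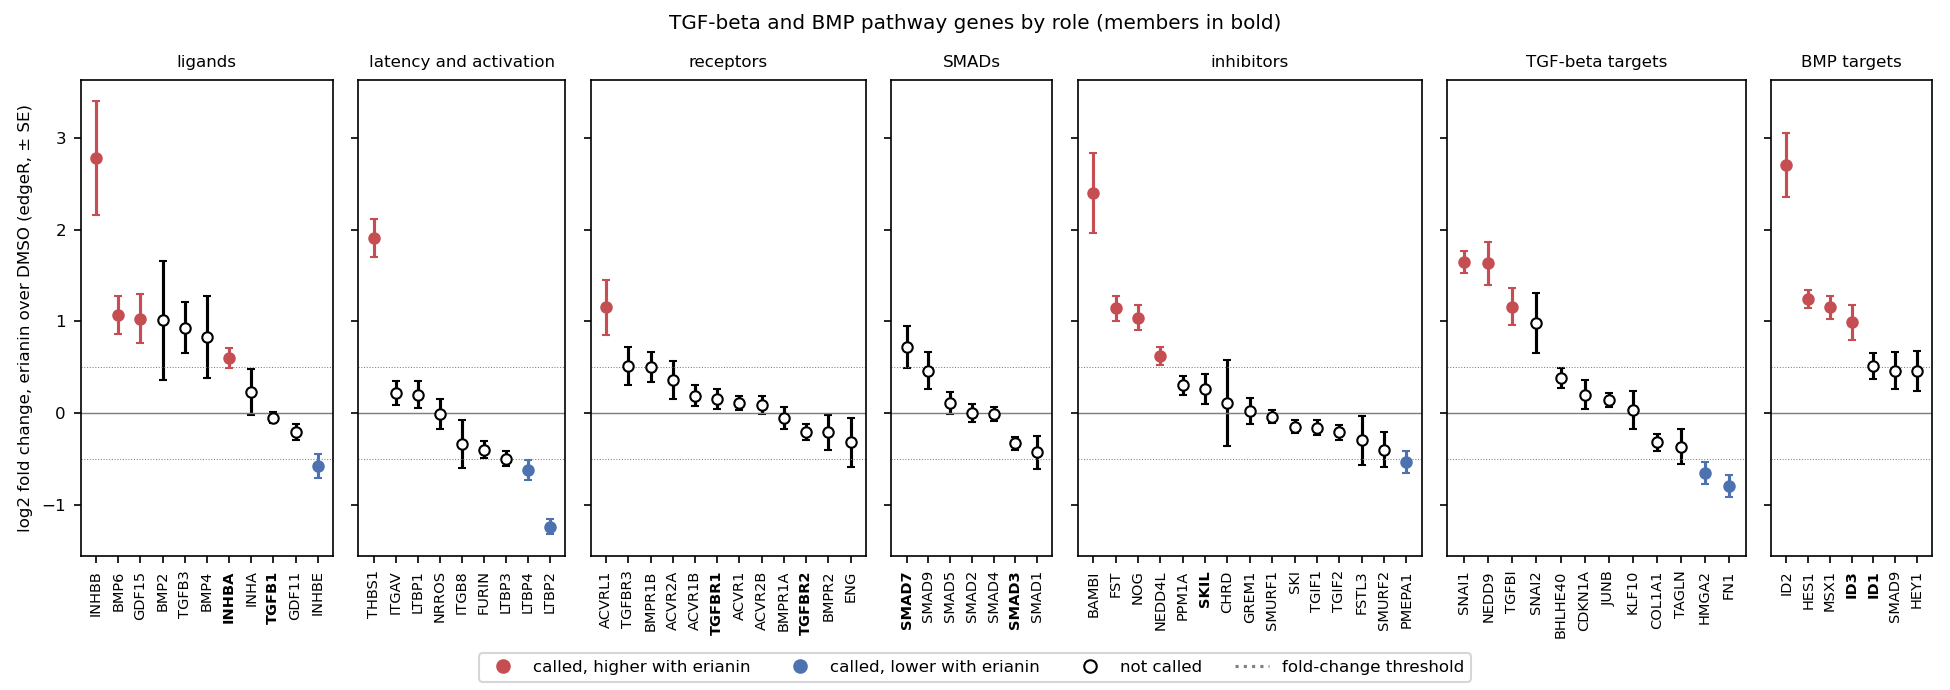
Log2 fold change, erianin over DMSO, with its standard error for the tested pathway genes reported here, grouped by role, from edgeR on all 6 libraries. Filled red and blue points were called as higher and lower, members are in bold, and dotted lines mark the fold-change threshold of 0.5. INHBB, at 2.78, lies highest and LTBP2, at -1.24, lowest. INHBB had at most 4 reads in a DMSO library and passed the low-count filter through the erianin libraries.

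Of 11 tested ligand genes, 4 rose and 1 fell, against 5.37% and 3.36% of all tested genes. The median log2 fold change of the 11 was 0.83. BMP6, a BMP ligand, went from 2.04 to 4.30 CPM on average (log2 fold change 1.07, edgeR adjusted p = 0.0164). INHBB, the other activin subunit, had 4, 4 and 0 reads with DMSO and 18, 26 and 24 reads with erianin (log2 fold change 2.78, edgeR adjusted p = 0.0246). It passed the low-count filter through the erianin libraries. With at least 10 counts in every library, 3 ligand genes were called higher and 1 lower, at 4.98% and 3.41% of tested genes. The stress-induced ligand GDF15 rose from 0.685 to 1.40 CPM (edgeR adjusted p = 0.0417), whereas INHBE fell from 10.3 to 6.92 CPM (edgeR adjusted p = 0.0282). INHBA, INHBB, INHBE and GDF15 each kept the call in 1 of the 6 fits that left out a library, the one without DMSO replicate 3, and BMP6 in 2. In 4 of those fits, without DMSO replicate 1 or any one erianin replicate, 0 ligand genes were called by edgeR in either direction. The share of all tested genes called was 5.7% without DMSO replicate 1 and between 2.39% and 2.53% without an erianin replicate.

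Among 9 tested genes of latency and activation, 1 rose and 2 fell, against 5.37% and 3.36% of all tested genes. The median of the 9 was -0.34. THBS1, thrombospondin-1, which can release active TGF-beta from its latent form, had 0.985, 1.57 and 1.41 CPM with DMSO and 5.80, 4.90 and 4.45 CPM with erianin (log2 fold change 1.91, edgeR adjusted p = 0.00319). LTBP2, listed here by its family name (latent TGF-beta binding proteins), had 82.7, 94.1 and 87.1 CPM and then 37.1, 37.9 and 37.0 CPM (log2 fold change -1.24, edgeR adjusted p = 0.000704). Whether its product holds TGF-beta latent was not tested. LTBP4 fell as well, from 303 to 197 CPM (edgeR adjusted p = 0.0141). LTBP3 (267 and 189 CPM, edgeR adjusted p = 0.00829) and the processing protease FURIN (log2 fold change -0.40, edgeR adjusted p = 0.0287) passed the p threshold inside the fold-change threshold.

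Of 12 tested receptor genes 1 was called with all libraries, against 8.73% of all tested genes. This was ACVRL1, a type I receptor best known from endothelium, at 0.542 and 1.23 CPM (log2 fold change 1.15, edgeR adjusted p = 0.0412). The summed endothelial markers were higher with erianin as well, as given above, but CDH5 was not, at 0.0967 and 0.0674 CPM on average. VWF and KDR were not called (edgeR adjusted p = 0.0621 and 0.162), and PECAM1 and CDH5 did not pass the low-count filter. A link to ACVRL1 was not tested. Without DMSO replicate 3, 3 receptor genes were called as higher and 1 as lower, at 11.4% and 6.11% of all tested genes. In the other 5 fits that left out a library 0 were called by edgeR. ACVR1B, the activin type I receptor, had a log2 fold change of 0.19 (edgeR adjusted p = 0.276). Of 7 tested SMAD genes 0 were called by edgeR, as by DESeq2, with a median of 0.00, while 3 (SMAD1, SMAD3 and SMAD7) had an unadjusted p under 0.05. By edgeR 8.73% of all tested genes were called. With the GC offset 1 SMAD gene was called as higher and 1 as lower, at 5.19% and 5.22% of all tested genes. Without DMSO replicate 3 the SMAD calls were 2 higher and 0 lower, at 11.4% and 6.11%. SMAD5 of the BMP branch was at 51.4 and 55.6 CPM (edgeR adjusted p = 0.573).

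Of 15 tested inhibitor genes, 4 rose and 1 fell, against 5.37% and 3.36% of all tested genes. The median of the 15 was 0.02. The secreted antagonists FST, follistatin, which binds activin, and NOG, noggin, which binds BMPs, rose together, FST from 4.80 ± 0.681 to 10.6 ± 0.438 CPM and NOG from 2.43 ± 0.144 to 5.01 ± 0.162 CPM (SD, n = 3 each), with edgeR adjusted p-values of 0.00403 and 0.00503. NEDD4L, a ubiquitin ligase that acts on SMADs, rose from 77.9 to 119.6 CPM (edgeR adjusted p = 0.00994), and the pseudoreceptor BAMBI from 0.167 to 0.865 CPM (edgeR adjusted p = 0.0139). BAMBI passed the low-count filter through the erianin libraries. With at least 10 counts in every library, 3 inhibitor genes were called higher and 1 lower, at 4.98% and 3.41% of tested genes. PMEPA1, a feedback inhibitor induced by TGF-beta, fell from 17.9 to 12.3 CPM (edgeR adjusted p = 0.0275). SKI and SMURF2 did not pass (edgeR adjusted p = 0.185 and 0.204).

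Of 13 tested TGF-beta target genes, 3 rose and 2 fell, against 5.37% and 3.36% of all tested genes. The median of the 13 was 0.14. SNAI1, a repressor of epithelial genes, had 9.77, 7.58 and 9.05 CPM with DMSO and 26.8, 28.2 and 27.8 CPM with erianin (log2 fold change 1.65, edgeR adjusted p = 0.00102). NEDD9 and TGFBI rose from DMSO means under 1 CPM (edgeR adjusted p = 0.00655 and 0.0107). Fibronectin, FN1, fell from 5817 to 3353 CPM (edgeR adjusted p = 0.00761) and the chromatin protein HMGA2 from 255 to 161.5 CPM (edgeR adjusted p = 0.0124). JUNB, an AP-1 subunit, was at 309 and 341 CPM (edgeR adjusted p = 0.290). CCN2, another usual target, singled out after its values were seen, is listed at 0 in every library; whether that reflects the transcript or how the table was built was not tested, so the 0 is not read as absence.

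Of 7 tested BMP target genes, 4 rose and 0 fell, with a median of 0.99. The shares over all tested genes were 5.37% and 3.36%, and the list was chosen with earlier results known. Beside ID3 these were its relative ID2, with 0.246, 0.123 and 0.321 CPM with DMSO and 1.58, 1.69 and 1.26 CPM with erianin (edgeR adjusted p = 0.00489), and the transcription factors MSX1, from 4.82 to 10.7 CPM (edgeR adjusted p = 0.00325), and HES1, from 10.7 to 25.3 CPM (edgeR adjusted p = 0.00105). HES1 is also a Notch target. ID2 passed the low-count filter through the erianin libraries. With at least 10 counts in every library, 3 BMP target genes were called higher and 0 lower, at 4.98% and 3.41% of tested genes.

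The 3 genes whose log2 CPM followed ID3 most closely over the 6 libraries, among 11554 genes of at least 1 CPM on average, were FHDC1 (Pearson r = 0.998), BMP6 (0.997) and RRAD (0.994). With DMSO, FHDC1 had 0.575, 1.05 and 0.385 CPM and RRAD 0.164, 0.524 and 0.128 CPM. Both reached that average through the erianin libraries, which favors genes that rise, so their direction is no separate support. In all, 191 genes had r over 0.95, and the libraries share their group difference and depth. All 3 had the ID3 order among the DMSO libraries, replicate 2 being the highest and replicate 3 the lowest, which the choice by correlation favors.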

How the data were processed

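RNA of 6 CAL62 samples was sequenced, and per the labels the submitters' processing notes name fastp 0.23.2, STAR 2.7.10, featureCounts 2.0.1, StringTie 2.2.1 and GRCh38. The annotation and strand setting are not given in the sources used here. Raw counts and TPM values per gene were deposited by the authors, and the TPM columns summed to between 59.1% and 78.3% of the nominal total. Rows without an identifier held at most 0.00515% of counts and were left out.

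Counts were tested in edgeR 4.0.16 (R 4.3.3) with TMM factors, filterByExpr and the quasi-likelihood test, adjusted by Benjamini-Hochberg over 12821 genes. On simulated data the test recovered 200 of 200 changed genes with 4 false calls over 12716 genes, with a simulated coefficient of variation of 0.1, below the 0.139 of these libraries, so that recovery in the data may be lower. The changed genes were drawn only from those above a set mean CPM, with changes larger than that of INHBA. Recovery of smaller changes or of scarce genes was therefore not measured. Alternatives were DESeq2 1.42.0, other factors and filters, limma 3.58.1 on log2(TPM + 1) and log2(TPM + 0.1), a replicate block, a GC offset, other fold-change thresholds and leaving out each library. Within-library TPM ratios had an exact permutation test, adjusted over the 4 of 5 planned ratios that could be formed.

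Members, pathway lists and tests were chosen with earlier results of these data known. The text names the members, the ratio partners, up to 5 called genes and the 2 genes of highest TPM in each list, and the 3 genes most correlated with the called member of largest change, and items that this rule or the marker lists hold but the text does not name are not reported here. Positions are from GENCODE 29 and start regions from RefSeq GRCh38.p14, the first start listed where a gene had several (4 members). Counting intervals and limits cover counting error only.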

Additional observations from a re-analysis of the deposited data

How the results depend on the processing

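INHBA and ID3 stayed above 0 in every setting run. TGFB1 was at 0.00 with upper-quartile factors and 0.15 in each of 3 limma fits on TPM, and TGFBR1 at -0.04 with the GC offset and -0.03 with GC offset and block. Those TPM fits moved the median of all genes by 0.12 to 0.20 and split all calls into 1098 higher and 94 lower with log2(TPM + 1), against 688 and 431. Upper-quartile factors gave 822 and 299, and the GC offset 665 and 669. The members called numbered 1 with GC offset and block and 0 beyond a log2 fold change of 1, where the pathway had 15 and all genes 352. Without a fold-change threshold 1912 genes were called. Leaving out 1 library gave 0 to 3 members, 9 to 33 pathway genes and 309 to 2282 genes in all, the highest counts without DMSO replicate 3, and ratio differences (log2) of -0.44 to -0.24 for TGFBR2/TGFBR1, 0.80 to 1.26 for SMAD7/SMAD3, 0.31 to 0.58 for SKIL/SKI and -0.71 to -0.42 for ID1/ID3. The cause was not tested. With the replicate block 2 members, 16 pathway genes and 665 genes in all were called. Deviations of same-numbered libraries correlated at 0.00138, 0.0253 and -0.0329, so no deviation shared by number was seen. With few libraries a group, and DMSO replicate 3 standing apart, this cannot exclude that the numbers pair the libraries. Depth limited TGFB2, with at most 5 reads.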
